A study of Mus musculus with 2 samples.

Results

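The 43 genes described here encode the signalling proteins of the BMP and TGF-β pathways: secreted ligands, receptors, Smad proteins, Id genes, and the extracellular proteins and pseudoreceptor that dampen the signal. They were chosen by symbol, and all 43 were found among the 43346 genes of the deposited tables. The tissue was mouse midbrain at E12.5, dissected from B6NCrl embryos of both sexes that are labelled healthy and carry no genotype change or treatment in the labels. The 2 libraries form 1 group, with a pool of 120 embryos for replicate 1 and of 88 embryos for replicate 2, so each value is an average over many animals and over every cell type that was dissected. With no second condition, the data give the level of each gene and its difference between the pools, and a p-value between the libraries measures reads of these libraries and not a condition.

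Ligands of this family bind a pair of type I and type II receptor kinases. The type I receptor then phosphorylates receptor Smads, Smad1, Smad5 and Smad9 on the BMP side and Smad2 and Smad3 on the TGF-β and activin side, which enter the nucleus with the co-Smad Smad4. In the developing neural tube, BMPs from the roof plate and the overlying tissue pattern dorsal cell types, and Id genes, which encode helix-loop-helix proteins that hold back proneural factors, are textbook targets of BMP Smads. Smad6, Smad7 and Bambi act as feedback inhibitors, and noggin, chordin, gremlin and follistatin bind ligands outside the cell.

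Expression was measured by RNA sequencing as TPM, an abundance per transcript scaled to gene length and library total, so levels can be compared between genes. Of the 43 genes, 36 (83.7%) were at 1 TPM or more in both libraries, against 34.4% of all 43346 genes and 60.5% of 21461 nuclear protein-coding genes. The median over the 43 genes was 9.28 TPM, against 4.95 TPM over nuclear protein-coding genes and 21.8 TPM over those detected in both libraries. Id3, at 304.1 ± 25.9 TPM (SD, n = 2), was the highest and Smad9, at 0.230 ± 0.0566 TPM, the lowest. Gdf7, Inhbb, Smad9 and Grem1 were under 1 TPM in both libraries, and Bmp3, Tgfb1 and Inhba were under 1 TPM in 1 library. The libraries held 29430493 and 37381984 estimated counts in replicates 1 and 2, and the members' mean counts ran from 20 for Gdf7 to 10012 for Tgfbr1. For 7 members a library held fewer than 100 counts.

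Sequences are shown for 2 kinds of observation. The first is the coding segments that separate the isoforms of the receptors whose isoform with the largest deposited share differed between the libraries. The second is the upstream sequence of an abundant target and an abundant receptor, printed because both carry the motif described below. In the first set, capitals mark the segment and lower case the 15 coding bases on either side, read on the coding strand from GENCODE M21 transcripts on mm10. The Tgfbr2 segment lies at chr9:116158271-116158345 on the minus strand and holds 75 coding bases, or 25 codons. The Acvr2b segment lies at chr9:119428201-119428224 on the plus strand and holds 24 coding bases, or 8 codons.
Tgfbr2 segment: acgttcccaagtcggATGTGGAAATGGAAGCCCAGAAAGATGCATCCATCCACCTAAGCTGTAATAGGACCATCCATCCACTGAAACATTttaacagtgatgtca
Acvr2b segment: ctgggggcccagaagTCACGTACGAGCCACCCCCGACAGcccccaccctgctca

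In the second set, 250 bases before the RefSeq start site (GRCm38.p6) are shown for Id4 at chr13:48260866-48261115 and Tgfbr1 at chr4:47352972-47353221, both on the plus strand and outside GENCODE exons. Id4 ranked after Id3 and Id2 among all members, and Tgfbr1 was the most abundant receptor. Capitals mark GGCGCC, a GC-rich motif type bound by BMP Smads, whose first base lay 148 bases before the start in Id4 and 233 bases before it in Tgfbr1.
Id4 upstream: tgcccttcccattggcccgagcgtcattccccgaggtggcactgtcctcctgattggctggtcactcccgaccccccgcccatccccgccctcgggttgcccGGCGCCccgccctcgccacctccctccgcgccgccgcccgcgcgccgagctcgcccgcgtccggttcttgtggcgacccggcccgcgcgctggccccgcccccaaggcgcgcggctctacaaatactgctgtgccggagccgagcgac
Tgfbr1 upstream: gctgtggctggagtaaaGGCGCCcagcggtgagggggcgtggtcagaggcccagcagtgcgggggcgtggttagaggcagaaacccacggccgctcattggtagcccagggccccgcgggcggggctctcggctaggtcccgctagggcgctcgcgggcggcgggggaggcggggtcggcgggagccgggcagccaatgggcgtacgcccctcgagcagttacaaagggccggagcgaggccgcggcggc
The RefSeq table held upstream sequence for 30 of the 43 members and for 27025 genes in all. A gene was counted when the 250 bases before any of its listed start sites held the motif. GGCGCC, which reads the same on both strands, was present in 9 of the 30 members (30.0%). This stood against 10.8% of all 27025 genes and 20.3% of the 10169 that were protein-coding and detected in both libraries. The 9 were Bmpr1a, Bmpr2, Chrd, Grem1, Id2, Id4, Smad5, Smad9 and Tgfbr1, whose mean levels ran from 0.230 TPM for Smad9 to 205.7 TPM for Id2. Id3, the most abundant member, had no GGCGCC in its 250 bases, nor had Tgfbr1 before a second start site. Part of the sequence with the motif lay within GENCODE exons for 4 of them. These were all 250 bases for Bmpr2, 161 for Id2, 141 for Bmpr1a and 42 for Smad5. GTCTAGAC, a palindromic Smad3 and Smad4 motif whose ends do not match those of GGCGCC, so that matches of the motifs cannot overlap, was in 0 of the 30 members and in 0.200% of all genes in the table.

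**Figure D1:**
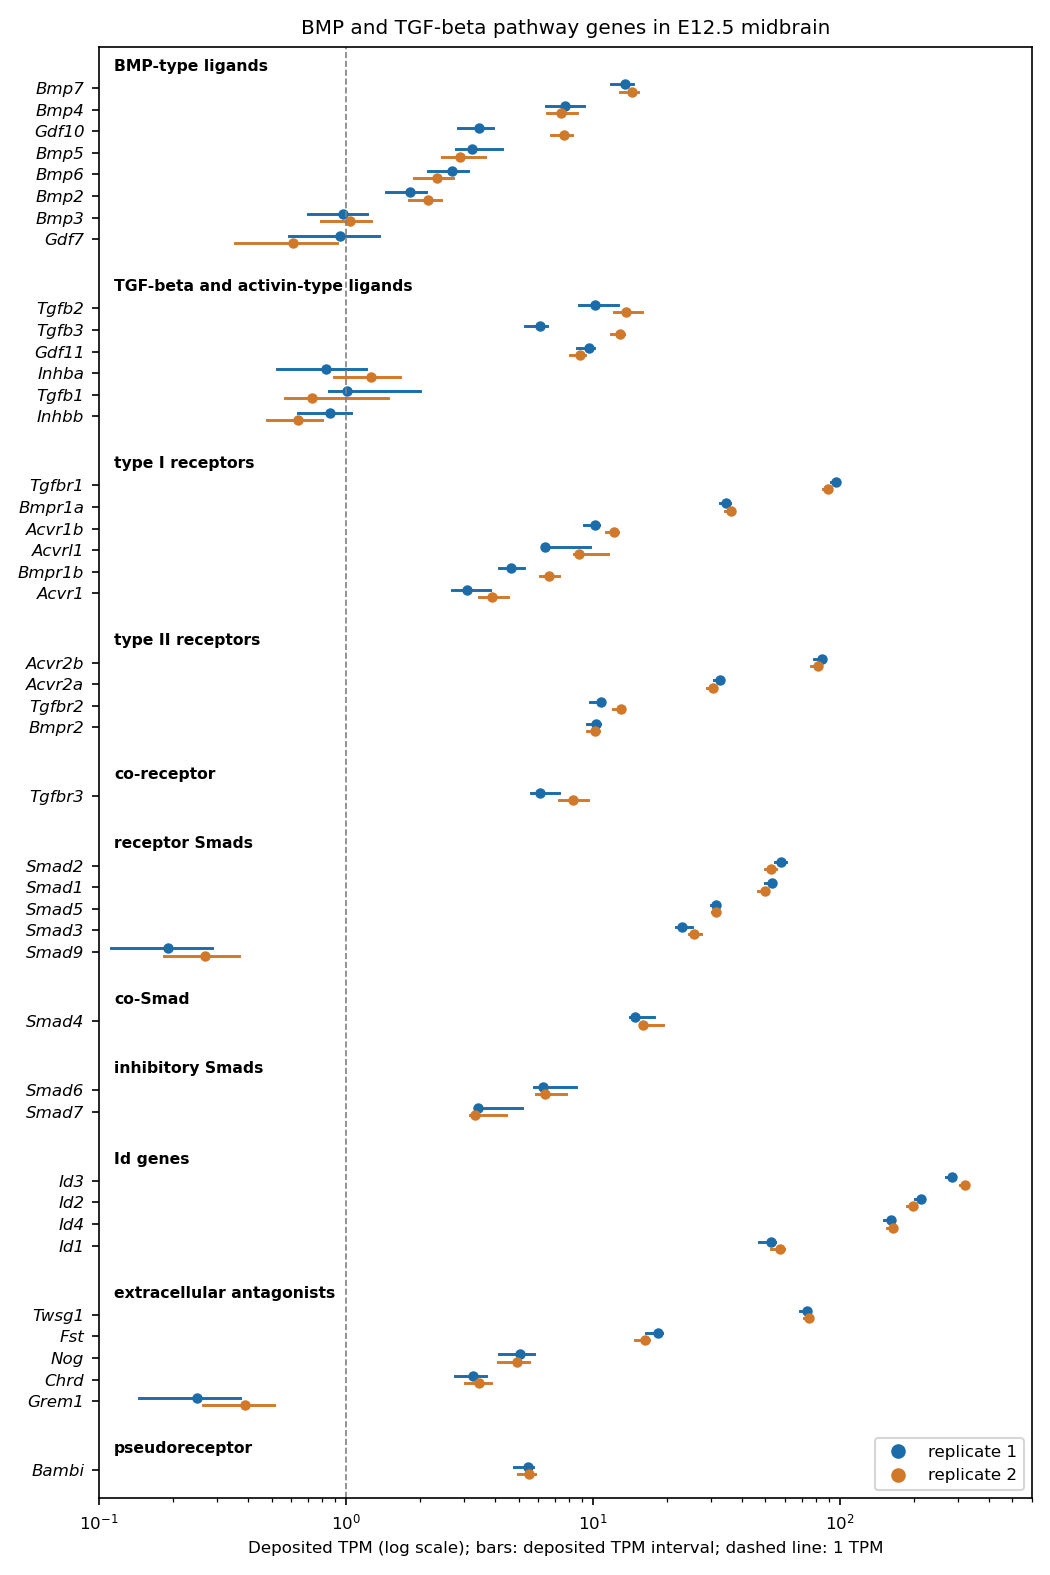
Deposited TPM of the 43 genes in replicate 1 (blue, upper point of each pair) and replicate 2 (orange, lower point), grouped by role, on a log axis; bars are the deposited TPM intervals and the dashed line is 1 TPM. Id genes lead, Tgfbr1 and Acvr2b lead their receptor classes, ligands lie below 20 TPM, and only Gdf10 and Tgfb3 among the ligands have intervals that do not overlap between the libraries.

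Ligand transcripts were present at low levels, and Bmp7 was the most abundant of them. Bmp7, a BMP of the subgroup that also holds Bmp5 and Bmp6, was at 13.5 and 14.4 TPM in replicates 1 and 2 and made up 38.3% ± 1.35 (SD, n = 2) of the BMP-type ligand total of 34.3 and 38.5 TPM. Bmp4, which with Bmp2 forms the subgroup closest to Drosophila Dpp, was at 7.70 and 7.44 TPM, and Bmp2 at 1.81 and 2.14 TPM. Bmp5 was at 3.23 and 2.91 TPM, and Bmp6 at 2.69 and 2.34 TPM. None of these 5 BMP genes had an adjusted p under 0.05 between the libraries. Bmp6 overlaps Txndc5 on the opposite strand, at 89.7 and 102.8 TPM, and whether the counting used strand is not given in the sources used here.

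The remaining BMP-type ligands included the scarcest and the most variable of the group. Bmp3, a divergent member known to oppose other BMPs, was at 0.970 and 1.04 TPM. Gdf7, a roof plate ligand of the spinal cord, was at 0.95 and 0.61 TPM from 22 and 18 counts. The ratio for Gdf7 had an exact 95% interval that included 1. Gdf10, a close relative of Bmp3, stood at 3.47 TPM in the replicate 1 pool and at 7.64 TPM in the replicate 2 pool. The deposited interval of Gdf10 was 2.85 to 3.94 TPM in replicate 1 and 6.77 to 8.21 TPM in replicate 2, so the intervals did not overlap.

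Among TGF-β and activin-type ligands, Tgfb2, Tgfb3 and Gdf11 carried most of the transcripts and Tgfb1 and the activin subunits were near the detection threshold. Tgfb2 was at 10.2 and 13.6 TPM and Tgfb3 at 6.08 and 12.9 TPM in replicates 1 and 2, so Tgfb2 exceeded Tgfb3 1.68-fold in replicate 1 and 1.05-fold in replicate 2. Gdf11, an activin-like ligand that restrains neurogenesis in other parts of the mouse nervous system, was at 9.66 and 8.90 TPM. Tgfb1, best known from blood and immune cells, was at 1.01 and 0.730 TPM from 37 and 28 counts. Inhba and Inhbb, which encode the activin β subunits, were at 0.830 and 1.26 TPM and at 0.860 and 0.640 TPM. The 14 ligands together reached 62.9 and 76.5 TPM, less than the single receptor Tgfbr1.

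Receptors were more abundant than ligands, and 1 gene led each class. Tgfbr1, the type I receptor for TGF-β that also serves Gdf11, was at 96.8 and 89.5 TPM and made up 59.5% ± 3.71 (SD, n = 2) of the type I total of 155.8 and 157.3 TPM. Bmpr1a, the broadly expressed type I receptor for Bmp2 and Bmp4, was at 34.7 and 36.3 TPM, and the antisense gene Gm17110 that overlaps it was at 5.05 and 4.56 TPM. Tgfbr1 exceeded Bmpr1a 2.79-fold in replicate 1 and 2.47-fold in replicate 2. Bmpr1b, the second BMP type I receptor, was at 4.64 and 6.66 TPM, and Bmpr1a exceeded it 7.48-fold and 5.45-fold. The activin type I receptor Acvr1b was at 10.2 and 12.2 TPM, and Acvr1, a type I receptor for Bmp6 and Bmp7, at 3.08 and 3.90 TPM. Acvrl1, a type I receptor of endothelial cells, was at 6.37 and 8.75 TPM.

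The activin type II receptors, which bind activins, Gdf11 and several BMPs, were higher in TPM than the dedicated BMP and TGF-β type II receptors. Acvr2b was at 84.6 and 81.5 TPM and made up 60.7% ± 0.603 (SD, n = 2) of the type II total of 138.4 and 135.3 TPM. Acvr2a followed at 32.8 and 30.6 TPM, in an overlap with Orc4 on the opposite strand, which was at 101.4 and 111.0 TPM. Bmpr2, the BMP type II receptor, was at 10.3 and 10.2 TPM, and Acvr2b exceeded it 8.21-fold and 8.01-fold. Their counts were close, 2183 and 2662 for Bmpr2 and 2414 and 2947 for Acvr2b. The deposited lengths in replicate 1 were 12067 bases for Bmpr2 and 1710 for Acvr2b, so these folds rest on the length scaling. Coverage along the transcripts was not examined. Tgfbr2, the TGF-β type II receptor, was at 10.7 and 13.0 TPM. The co-receptor Tgfbr3, or betaglycan, which presents TGF-β2 to Tgfbr2, was at 6.11 and 8.28 TPM.

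On the log2(TPM + 1) scale the median of the 6 type I receptors exceeded that of the 14 ligands by 1.2 in replicate 1 and 1.65 in replicate 2, a mean of 1.43 ± 0.32 (SD, n = 2). This is a difference between levels within each library, and no p-value is given for it. The difference was 1.97 without length normalisation and 0.73 over members at a mean of at least 1 TPM, a restriction that removed ligands and no type I receptor.

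The receptor Smads of the 2 branches were present at near-equal sums. Smad1 and Smad5, the BMP Smads, were at 53.1 and 49.7 TPM and at 31.6 and 31.6 TPM, while Smad9, which completes the class, was at 0.190 and 0.270 TPM from 18 and 32 counts. Smad2, an effector of TGF-β and activin, was at 58.0 and 52.8 TPM, and its partner Smad3 at 22.9 and 25.7 TPM. The BMP Smad sum over the TGF-β Smad sum was 1.05 in replicate 1 and 1.04 in replicate 2. The shared co-Smad Smad4 was lower than 4 of the 5 receptor Smads, at 14.8 and 15.9 TPM. The inhibitory Smads were lower again, Smad6 at 6.31 and 6.40 TPM and Smad7 at 3.42 and 3.33 TPM.

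Id genes were the most abundant of the 43, with a sum of 713.2 and 740.7 TPM in replicates 1 and 2. Id3 was at 285.8 and 322.4 TPM, Id2 at 214.1 and 197.2 TPM and Id4 at 160.9 and 163.7 TPM, and no other member was as high. Id1 was lower, at 52.4 and 57.4 TPM, and Id3 exceeded it 5.45-fold and 5.62-fold. Id3 lay above 98.1% and Id1 above 85.1% of nuclear protein-coding genes by mean TPM. Id2 and Id3 differed in opposite directions between the libraries. Id2 was 0.15 higher and Id3 0.14 lower on the log2 scale in replicate 1, with adjusted p-values of 7.22e-06 and 9.30e-07 in the exact binomial test. That test covers counting error only, and neither gene passed the negative binomial test of edgeR given below. Id1 and Id4 had no adjusted p under 0.05. Id4 overlaps the antisense gene A330033J07Rik, at 2.79 and 1.87 TPM.

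Among the extracellular antagonists, Twsg1 led and the specific BMP binders were low. Twsg1, which binds BMPs and chordin and can inhibit or promote signalling, was at 73.3 and 75.2 TPM, or 74.1% ± 1.34 (SD, n = 2) of the antagonist total of 100.2 TPM in each library. It exceeded the sum of the other antagonists 2.72-fold in replicate 1 and 3.01-fold in replicate 2. Fst, or follistatin, which binds activins and Gdf11, was at 18.3 and 16.2 TPM. Nog, or noggin, was at 5.09 and 4.92 TPM, and Chrd, or chordin, at 3.26 and 3.46 TPM. Grem1 was at 0.250 and 0.390 TPM from 18 and 35 counts. Bambi, a pseudoreceptor that lacks the kinase domain, was at 5.44 and 5.52 TPM.

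When the 43 genes were put in order of mean TPM, 13 of the 42 neighbouring pairs had deposited TPM intervals that did not overlap in either library, and 29 overlapped in at least 1. Along the first 7 places, Id3, Id2, Id4, Tgfbr1, Acvr2b, Twsg1 and Smad2, each gene was separated from the next in both libraries. Smad2 and Id1 could not be separated, nor could Acvr2a and Smad5. Tgfb3 was apart from its neighbours Bmpr2 and Gdf11 in both libraries, below them in replicate 1 and above them in replicate 2, and Gdf10 was likewise below Bambi in replicate 1 and above it in replicate 2.

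Of the 43 genes, 17 have a single annotated transcript and 26 have 2 or more. At a mean of at least 1 TPM, 23 of 25 members with several transcripts (92.0%) had the same leading transcript in both libraries, against 90.4% of 10178 genes. The exceptions were the type II receptors Tgfbr2 and Acvr2b, whose segments are printed above. The Tgfbr2 transcript with the 75-base segment (ENSMUST00000061101) took 52.4% of the gene's abundance in replicate 1 and 33.8% in replicate 2. Its level was 5.63 and 4.40 TPM, with deposited intervals of 3.85 to 7.20 and 3.10 to 5.76 TPM that overlapped. The transcript without the segment (ENSMUST00000035014) was at 5.12 and 8.64 TPM, with intervals of 3.21 to 6.62 and 6.88 to 9.69 TPM that did not overlap. Within replicate 1 the intervals of these Tgfbr2 transcripts overlapped each other, so their order was not resolved there. Within replicate 2 they did not overlap. The deposited lengths of the pair, 4785 and 4710 bases, differ by the length of the segment.

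The Acvr2b transcript with the 24-base segment (ENSMUST00000165044) took 56.6% of the gene in replicate 1 and 47.9% in replicate 2. Its levels of 47.9 and 39.0 TPM had overlapping intervals, 40.2 to 52.4 and 33.5 to 42.6 TPM. The transcript without it (ENSMUST00000035093) was at 36.7 and 42.5 TPM, also with overlapping intervals, 30.0 to 41.7 and 37.0 to 45.9 TPM. Within each library the intervals of these Acvr2b transcripts overlapped each other, so neither library resolved which of them led. The deposited lengths of 1696 and 1729 bases show that these Acvr2b models differ at other places too, so their shares do not rest on the segment alone. For comparison, the leading Smad2 transcript took 75.9% and 77.2% of its gene and the next 20.6% and 17.7%.

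**Figure D2:**
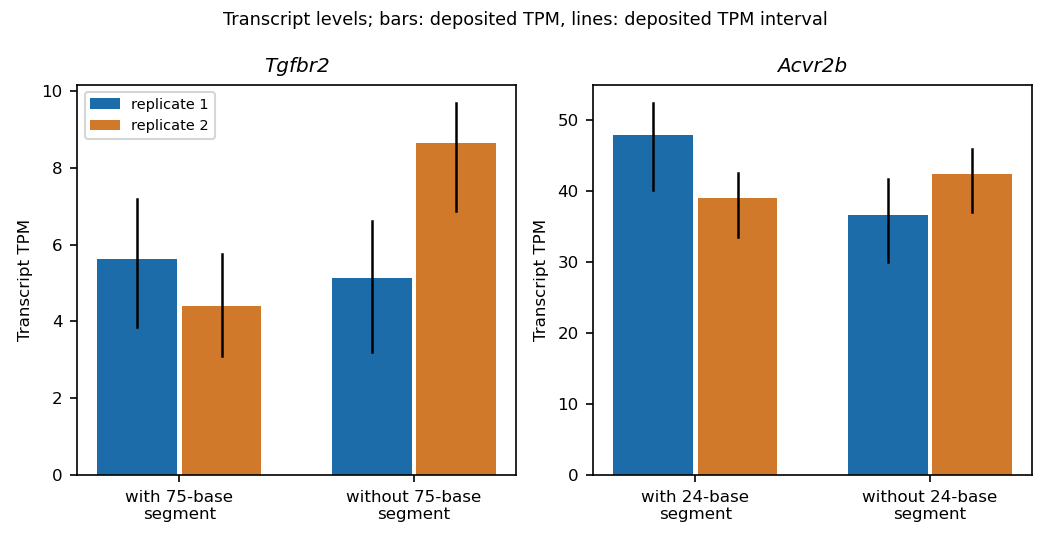
TPM of the Tgfbr2 and Acvr2b transcripts with and without their coding segment in replicate 1 (blue, left bar) and replicate 2 (orange, right bar); lines are deposited TPM intervals. The intervals do not overlap for the Tgfbr2 transcript without the 75-base segment, at 5.12 and 8.64 TPM, and overlap for the other 3 transcripts.

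Between the libraries, 78.9% of members at 1 TPM or more differed by less than 1.2-fold, against 79.6% of all genes, and 2 ligands were called. Counts were compared gene by gene with a two-sided exact binomial test, adjusted by Benjamini-Hochberg over all genes tested. Calls required an adjusted p under 0.05 together with a 1.5-fold or larger ratio in either direction and a mean of at least 1 TPM. Of 38 members at that level, 2 (5.26%) were called, Gdf10 and Tgfb3, against 3.55% of the 15199 genes tested at that level. Both were lower in replicate 1, where 2.14% of all genes were called lower and 1.41% called higher. Both also had deposited TPM intervals that did not overlap, a further condition that 1.89% of all genes met. The labels put these pools in 1 group, so the calls are differences between samples of a group.

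Gdf10 (ENSMUSG00000021943.6, mm10 chr14:33923587-33937983) had 148 counts in replicate 1 and 412 in replicate 2. After scaling it was 2.15-fold lower in replicate 1 (exact 95% interval 1.78 to 2.62, log2 ratio -1.10, adjusted p = 2.66e-15 in the exact binomial test). Tgfb3 (ENSMUSG00000021253.6, mm10 chr12:86056745-86079041) had 354 counts in replicate 1 and 950 in replicate 2. It was 2.08-fold lower in replicate 1 (exact 95% interval 1.84 to 2.35, log2 ratio -1.05, adjusted p = 1.67e-32 in the same test). Tgfb3 overlaps Ttll5 on the opposite strand, at 13.1 and 13.8 TPM. The binomial interval covers counting error only. A negative binomial test of edgeR used a common coefficient of variation, 0.094, estimated over the tested genes from these same libraries. In it the adjusted p was 0.000560 for Gdf10 and 0.000162 for Tgfb3. With a single value for all genes, the test sets a gene against the typical spread of genes and not against its own.

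**Figure D3:**
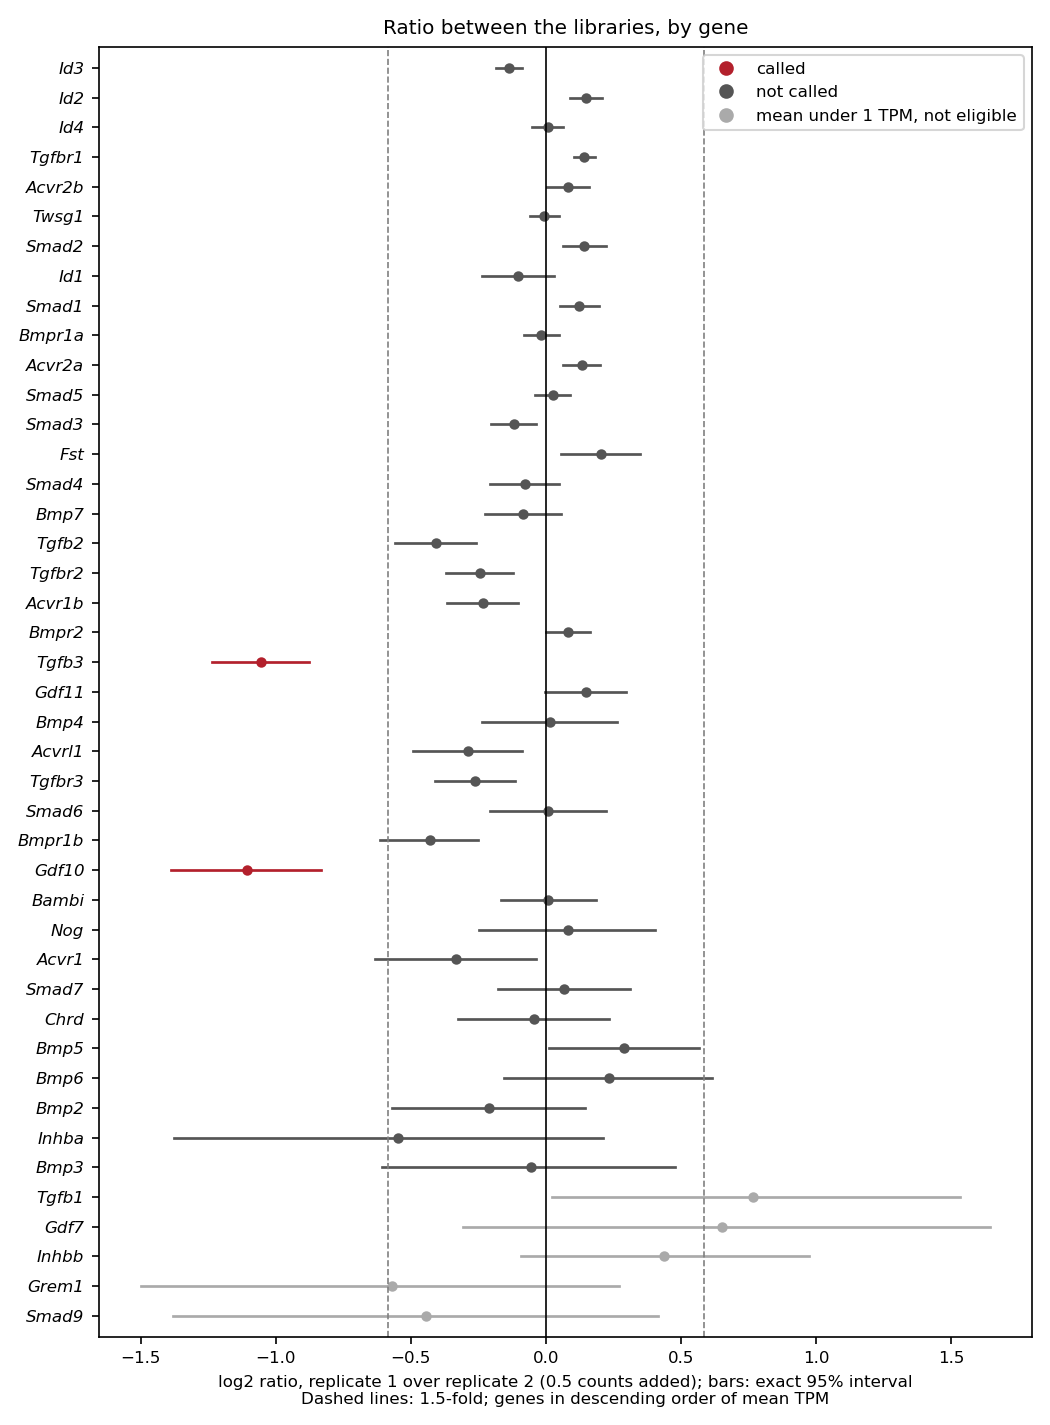
Log2 ratio of replicate 1 over replicate 2 for each of the 43 genes, in descending order of mean TPM, with exact 95% binomial intervals and dashed lines at 1.5-fold. Gdf10 at -1.10 and Tgfb3 at -1.05 are the only called members, and the widest intervals belong to genes with few counts.

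Smaller differences in more members passed the exact binomial test without reaching the ratio needed for a call. An adjusted p under 0.05 at any ratio was reached by 16 of the 38 members (42.1%), 10 lower and 6 higher in replicate 1, against 26.4% of the 15199 genes. The median log2 ratio was -0.01 over the 38 members and 0.00 over all genes, and 30 of the 38 (78.9%) were within 1.2-fold, against 79.6% of all genes. Tgfb2, the second TGF-β ligand, had 576 and 987 counts and a log2 ratio of -0.41 (adjusted p = 1.09e-06, exact binomial test). Bmpr1b had 399 and 695 counts and a log2 ratio of -0.43 (adjusted p = 2.46e-05, exact binomial test). In the negative binomial test of edgeR neither passed, with adjusted p-values of 0.716 for Tgfb2 and 0.666 for Bmpr1b. Of the 38 members only the 2 called ones, Gdf10 and Tgfb3, had an adjusted p under 0.05 in that test. Over all genes, 201 of 15199 did.

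Several receptors differed between the libraries in the exact binomial test, in both directions and by less than 1.5-fold. None of them passed the negative binomial test. Of the 6 type I receptors, 5 had a ratio below 1, as had 1 of the 4 type II receptors. Ratios below 1 were found for 20 of the 38 members and for 49.7% of all genes tested at 1 TPM or more. The exact binomial test gave adjusted p-values of 0.00350 for Acvr1b at a log2 ratio of -0.23 and 0.0246 for Acvrl1 at -0.29. Tgfbr2 at -0.24 and Tgfbr3 at -0.26 had adjusted p-values of 0.000850 and 0.00370 in the same exact test. The most abundant receptor, Tgfbr1, was higher in replicate 1 by 0.14 on the log2 scale (adjusted p = 1.01e-10, exact binomial test), from 9229 and 10795 counts. Acvr2a was also higher in replicate 1, by 0.13 (adjusted p = 0.00116, exact binomial test). For 9 of the 38 members at 1 TPM or more, the deposited TPM intervals did not overlap between the libraries. The share of all genes with intervals apart, called or not, was not computed, so the count has no background to be set against.

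Several marker lists of other cell types and regions were mostly lower in replicate 1, the direction of Gdf10 and Tgfb3. All 8 mesenchyme markers were lower in replicate 1, with sums of 1102 and 1557 TPM in replicates 1 and 2. Floor plate markers summed to 17.98 and 32.7 TPM, lower for 5 of 6 genes and called for 3. Endothelial markers summed to 162.0 and 190.0 TPM, lower for 7 of 8 genes, microglia and macrophage markers to 95.5 and 121.0 TPM, lower for 6 of 6, and red cell markers to 14942 and 17522 TPM, lower for 6 of 6. No gene of these last 3 lists or of the mesenchyme list was called, and none of these lists had a gene at 0.

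The remaining lists did not share a direction, and of these the midbrain list was also mostly lower in replicate 1. Radial glia markers summed to 2763 and 2777 TPM in replicates 1 and 2, lower for 3 of 6 genes. Neuron markers summed to 2083 and 1987 TPM, higher in replicate 1 for 5 of 6 genes. Choroid plexus markers summed to 54.3 and 32.2 TPM, with 3 genes called higher and 1 called lower, and roof plate and dorsal midline markers to 131.2 and 149.1 TPM, with 2 called higher and 1 called lower. Midbrain markers, at 237.9 and 255.9 TPM, were lower for 6 of 7 genes with 0 called. Their median log2 ratio was -0.33, against -0.22 for endothelial and -0.19 for red cell markers. Forebrain markers, at 248.8 and 190.9 TPM, were higher for 9 of 10 genes with 4 called higher and 1 called lower. All 7 midbrain and all 10 forebrain markers reached 1 TPM in at least 1 library. Hindbrain markers summed to 32.4 and 25.2 TPM, with 6 of 7 under 1 TPM in both libraries and Hoxa2, Hoxb1 and Hoxb3 at 0 in a library. The part of any of these lists in the differences of Gdf10, Tgfb3 or the receptors was not tested, and in bulk tissue fewer cells of a type and less RNA per cell cannot be told apart.

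**Figure D4:**
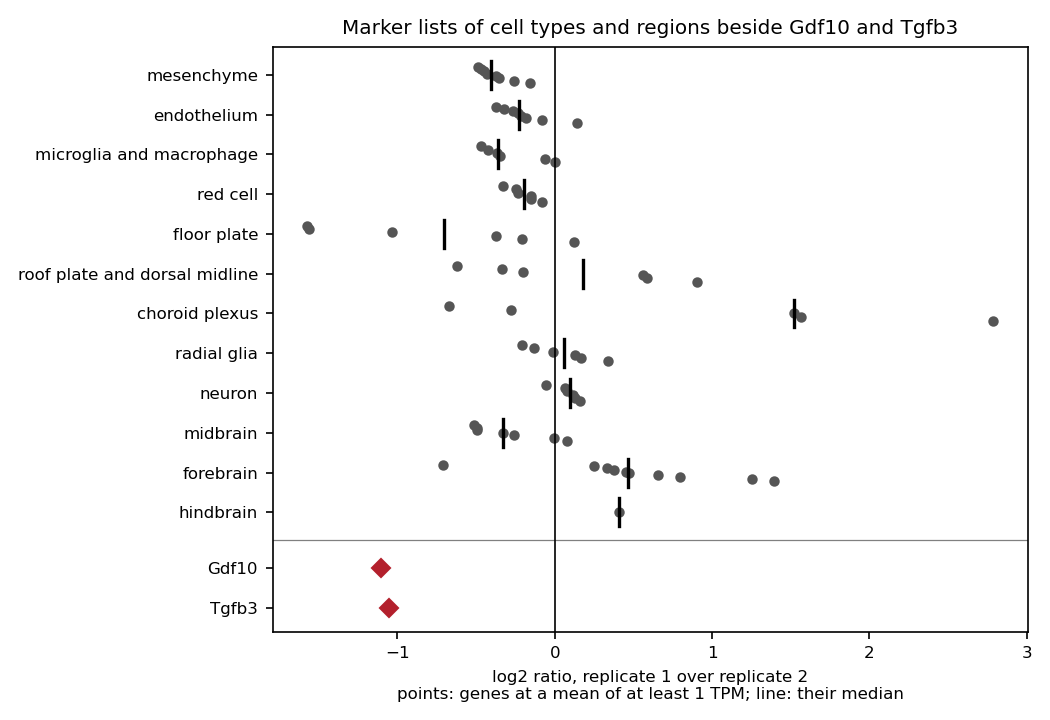
Log2 ratio of replicate 1 over replicate 2 for the genes of 12 marker lists at a mean of at least 1 TPM (points, with the list median as a line) above Gdf10 and Tgfb3 (diamonds). The 8 mesenchyme markers all lie left of 0, and forebrain markers lie mostly right of it. Floor plate markers have the lowest list median, -0.71, which falls in a gap between their genes. Foxa1 at 0.13, Shh at -0.21 and Lmx1b at -0.38 lie on one side, and Foxa2 at -1.04, Corin at -1.56 and Ferd3l at -1.57 on the other.

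Beyond the 43 genes, 72 other genes of the pathways were listed, of which 71 were measured. Of these, 42 were at 1 TPM or more in both libraries and 26 were under 1 TPM in both, and the median was 3.83 TPM. The highest were Tmeff1, which encodes a membrane protein with follistatin modules, at 250.6 and 221.2 TPM, and Fstl1, a secreted follistatin-like glycoprotein, at 138.3 and 179.8 TPM. Rgmb, a BMP co-receptor of the repulsive guidance family, was at 82.4 and 72.8 TPM, and Msx1, a homeobox target of BMP signalling, at 71.2 and 83.8 TPM. The ligand genes Nodal, Lefty2, Gdf2 and Bmp10 and the co-receptor gene Cfc1, named after their values were seen, had 0 of all gene counts in both libraries, which allows up to 0.106 CPM in replicate 1 and 0.0831 CPM in replicate 2, for a limit of 3 counts in a library.

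Of the 44 of these genes at a mean of at least 1 TPM, 7 (15.9%) were called between the libraries, 4 lower and 3 higher in replicate 1, against 3.55% of all genes tested at that level, 2.14% lower and 1.41% higher. The negative binomial test of edgeR called 4 of the 7, namely Tgfbi, Bmper, Runx2 and Tll1, against 201 of all 15199 genes. The lower genes were the homeobox gene Msx2 at 19.1 and 30.0 TPM, the TGF-β-induced matrix gene Tgfbi at 12.1 and 22.4 TPM, the secreted BMP binder Bmper at 2.29 and 4.28 TPM, and the osteoblast transcription factor Runx2 at 1.64 and 3.75 TPM. The higher genes were Sostdc1, a secreted BMP and Wnt antagonist, at 4.00 and 2.24 TPM, Vwc2, a chordin-like BMP binder, at 3.39 and 1.94 TPM, and Tll1, a protease that cleaves chordin, at 1.67 and 0.850 TPM. The intervals of Runx2 and Vwc2 overlapped between the libraries. The median log2 ratio over the 44 genes of the list at 1 TPM or more was -0.08.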

How the data were processed

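RNA from 2 pools of E12.5 midbrain was sequenced from 10 ng each, and the labels link the manual of a SMARTer Ultra Low kit. The authors deposited expected counts for genes and transcripts, estimates that need not be whole, on GENCODE M4 and mm10 per the file headers and notes. The deposited TPM values were normalised to length and library by the authors, with posterior means and TPM intervals beside them. The deposited isoform percent is a transcript's share of its gene. The aligner is not given in the sources used here. Names came from GENCODE M21 (42462 of 43346 identifiers matched). Spike-ins (4.14% and 3.48% of counts) and 26248 short numbered features were left out.

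Expected counts were rounded. TMM factors (edgeR 4.0.16, R 4.3.3) were 0.995 and 1.005. Genes with at least 10 summed counts were compared by a two-sided exact binomial test at those library sizes, with Benjamini-Hochberg adjustment. Log2 ratios, replicate 1 over replicate 2, had 0.5 counts added. Intervals are 95% exact binomial intervals and cover counting error only. The deposited TPM lay outside its own interval for 6 members in replicate 1 and 4 in replicate 2. All members were named, with the 4 highest and the called genes of the further list. Members, lists, roles and rules were chosen with earlier results of these data known. The steps were tested on simulated data. Alternatives used DESeq2 1.42.0 size factors, total counts, other thresholds and pseudocounts, posterior means, rescaled TPM, TMM-scaled CPM and an exact negative binomial test of edgeR. Further software was scipy 1.17.1, pandas 2.3.3, numpy 2.4.6 and matplotlib 3.10.9 under Python 3.11.15.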

Additional observations from a re-analysis of the deposited data

How the results depend on the processing

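The number of members detected, 36, stayed between 27 and 41 under other TPM thresholds, posterior mean TPM, rescaled TPM and either library alone. Gdf10 and Tgfb3 were the called members under every alternative tried. A ratio threshold of 1.2 added Acvrl1, Bmpr1b and Tgfb2, for 5 calls among 38 members, against 1629 among 15199 genes. The median member ratio stayed between -0.05 and -0.01 on the log2 scale under 6 alternatives. The type I receptor minus ligand difference of 1.43 was 1.97 with TMM-scaled CPM and 0.73 over members at 1 TPM or more. Leading transcripts were shared by 13 of 15 members (86.7%) at a mean of at least 10 TPM, against 93.6% of 7056 genes, where the members' share is below that of all genes and not above it. The lower count comes from the smaller number of genes. Of the further pathway genes, 11 were called at a ratio of 1.2, 2 at a ratio of 2 and 4 by the negative binomial test, against 7. Over all 15199 genes tested at that level, these settings called 1629, 213 and 201, against 539. The condition that TPM intervals be apart left 5 of the 7, and 288 of the 539 over all genes. That condition and all alternatives for the further genes were chosen after seeing the data. Leaving out a library gave levels and detection but no test between libraries. No paired analysis was possible because the libraries form 1 group. Depth limited members with few counts, such as Gdf7, Smad9 and Grem1.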
